A study of Homo sapiens with 24 samples.

Results

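The comparison described here asks what an activator of soluble guanylate cyclase (sGC) does to the transcripts of serum-deprived human kidney tubule cells. It sets HK-2 cells given BAY 60-2770 (BAY below) in normoxia, 3 libraries, against HK-2 cells given only the solvents in normoxia, 5 libraries. These 8 libraries were chosen by the treatment named in their labels, out of 24 in the series, and no measured value entered the choice. HK-2 is an established line of human proximal tubule epithelium, immortalised with papillomavirus oncogenes, and all libraries come from this line. Every culture was deprived of serum overnight and then treated for 24 h before total RNA was extracted and poly(A) RNA was sequenced. The labels give BAY at 1 mM and name DMSO and HCl with BSA as the solvents; whether that unit was meant is uncertain. The other groups used below are BAY and solvent in hypoxia (0.3% oxygen, 3 libraries each) and BAY with TGF-β1 and TGF-β1 alone (2 ng/mL, normoxia, 5 libraries each). The labels call the replicates biological but do not say what separated them, so the p-values describe only how much these cultures of 1 line varied.

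Soluble guanylate cyclase is a heterodimer of an alpha and a beta subunit that makes the second messenger cGMP when nitric oxide binds its haem. Activators such as BAY 60-2770 act on enzyme whose haem is oxidised or lost, which nitric oxide cannot stimulate. Cyclic GMP acts through cGMP-dependent protein kinases, through ion channels and through phosphodiesterases, some of which cleave cyclic AMP and are slowed or sped up by cGMP. In the kidney this pathway is best known from vessels, mesangial cells and fibroblasts, where it relaxes cells and restrains scarring.

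Total counts ran from 87762210 to 104973361 in the 8 libraries, and mitochondrial transcripts took 7.09% to 7.46% of them. Along the first principal component, which held 38.7% of the variance, the BAY libraries lay between -55.5 and -53.6 and the solvent libraries between 20.0 and 42.9. The solvent libraries were not uniform. On the second component, with 14.8% of the variance, solvent replicates 3 and 4 lay at -41.5 and -44.6, while solvent replicates 1, 2 and 5 lay between 11.9 and 33.2. The labels name no batch that separates them, and what set these cultures apart was not tested. Values against replicates 1, 2 and 5 alone and against replicates 3 and 4 alone are given below for many of the genes whose call or fold depended on the set. A fold printed without them can also differ between the sets. Tubule markers were present in part: the nephron transcription factor PAX8 averaged 361 ± 7.08 CPM with BAY, against 264 ± 17.3 CPM with solvent, and the brush border enzyme GGT1 313 ± 5.70 CPM with BAY, against 208 ± 12.9 CPM with solvent. The endocytic receptors LRP2 and CUBN stayed under 1 CPM in both groups and the organic anion transporter SLC22A6 was listed at 0.

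Of 21316 genes tested, 9362 were called at an adjusted p below 0.05, which is 43.9%; 4393 (20.6%) were higher and 4969 (23.3%) lower with BAY. Most of these changes were small. With at least a 2-fold change also required, 1249 genes (5.86%) were called, 614 (2.88%) higher and 635 (2.98%) lower, and 268 passed 4-fold. The groups did not overlap for 45.5% of genes, and the median log2 fold change over all genes tested was 0.0041. The largest rises and falls named below were picked from genes without overlap, so that trait is no separate result for them. Levels below are CPM, counts per 1000000 counted, after scaling between libraries, which compare a gene between groups but not 1 gene with another of different length. Log2 fold changes are BAY over solvent and carry an approximate standard error, means carry an SD over the 3 BAY and 5 solvent libraries, and adjusted p-values are from edgeR's quasi-likelihood test with Benjamini-Hochberg adjustment over all 21316 genes.

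**Figure D1:**
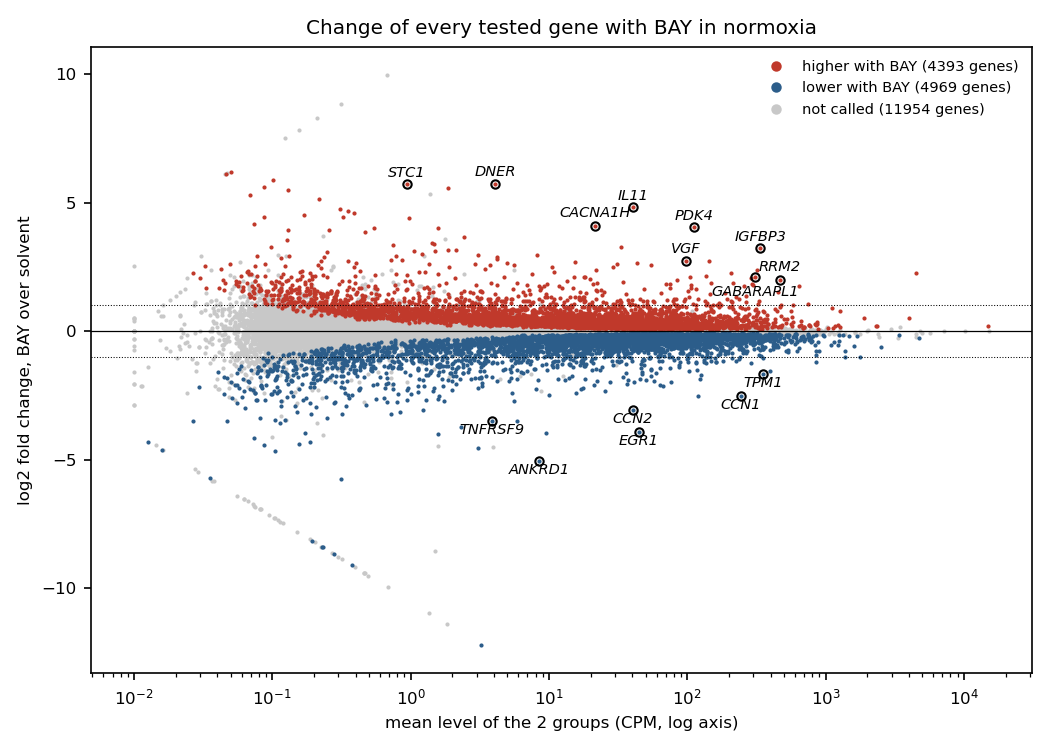
Log2 fold change, BAY over solvent in normoxia, of each tested gene against its mean level in CPM on a log axis; red and blue points are the 4393 genes called higher and the 4969 called lower, grey points were not called, and dotted lines mark 2-fold. DNER at 5.73 and ANKRD1 at -5.05 lie far outside the band that holds most called genes.

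IL11, IGFBP3 and PDK4 stood among the largest rises and ANKRD1 was the largest fall, counting called genes that have a symbol, reach 5 CPM in a group and have no BAY library within the solvent range. IL11 encodes a secreted cytokine of the IL-6 family and lies on chromosome 19, 55364389 to 55370463, minus strand (GRCh38, GENCODE 29). It had 85.0, 76.8 and 74.9 CPM with BAY, against 3.17, 3.04, 2.45, 2.59 and 2.73 CPM with solvent. Every BAY library stood far above every solvent library, a 28.2-fold difference (log2 fold change 4.82 ± 0.079, edgeR adjusted p = 3.1e-15). IGFBP3, a secreted carrier of insulin-like growth factors on chromosome 7 (45912245 to 45921874, minus strand), had 626, 608 and 600.2 CPM with BAY, against 68.2, 66.1, 63.9, 63.5 and 66.0 CPM with solvent. The groups were far apart and the difference was 9.33-fold (log2 fold change 3.22 ± 0.083, edgeR adjusted p = 1.4e-12).

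PDK4 encodes a mitochondrial kinase that switches off the pyruvate dehydrogenase complex and lies on chromosome 7 (95583499 to 95596491, minus strand). It had 210.4, 206 and 213 CPM with BAY, against 15.4, 15.2, 8.31, 8.22 and 16.6 CPM with solvent. The BAY libraries were close together, while solvent replicates 3 and 4 were lower than the other solvent libraries. The log2 fold change was 4.04 ± 0.23 (edgeR adjusted p = 1.3e-07), or 3.71 against solvent replicates 1, 2 and 5 alone and 4.68 against replicates 3 and 4 alone. ANKRD1 encodes a nuclear and sarcomeric ankyrin repeat protein whose transcript is a standard readout of the coactivator YAP, on chromosome 10 (90912096 to 90921276, minus strand). It had 0.543, 0.509 and 0.446 CPM with BAY, against 15.4, 14.9, 18.4, 18.5 and 15.4 CPM with solvent. Its highest BAY library was far below its lowest solvent library (log2 fold change -5.05 ± 0.14, edgeR adjusted p = 7.9e-13).

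**Figure D2:**
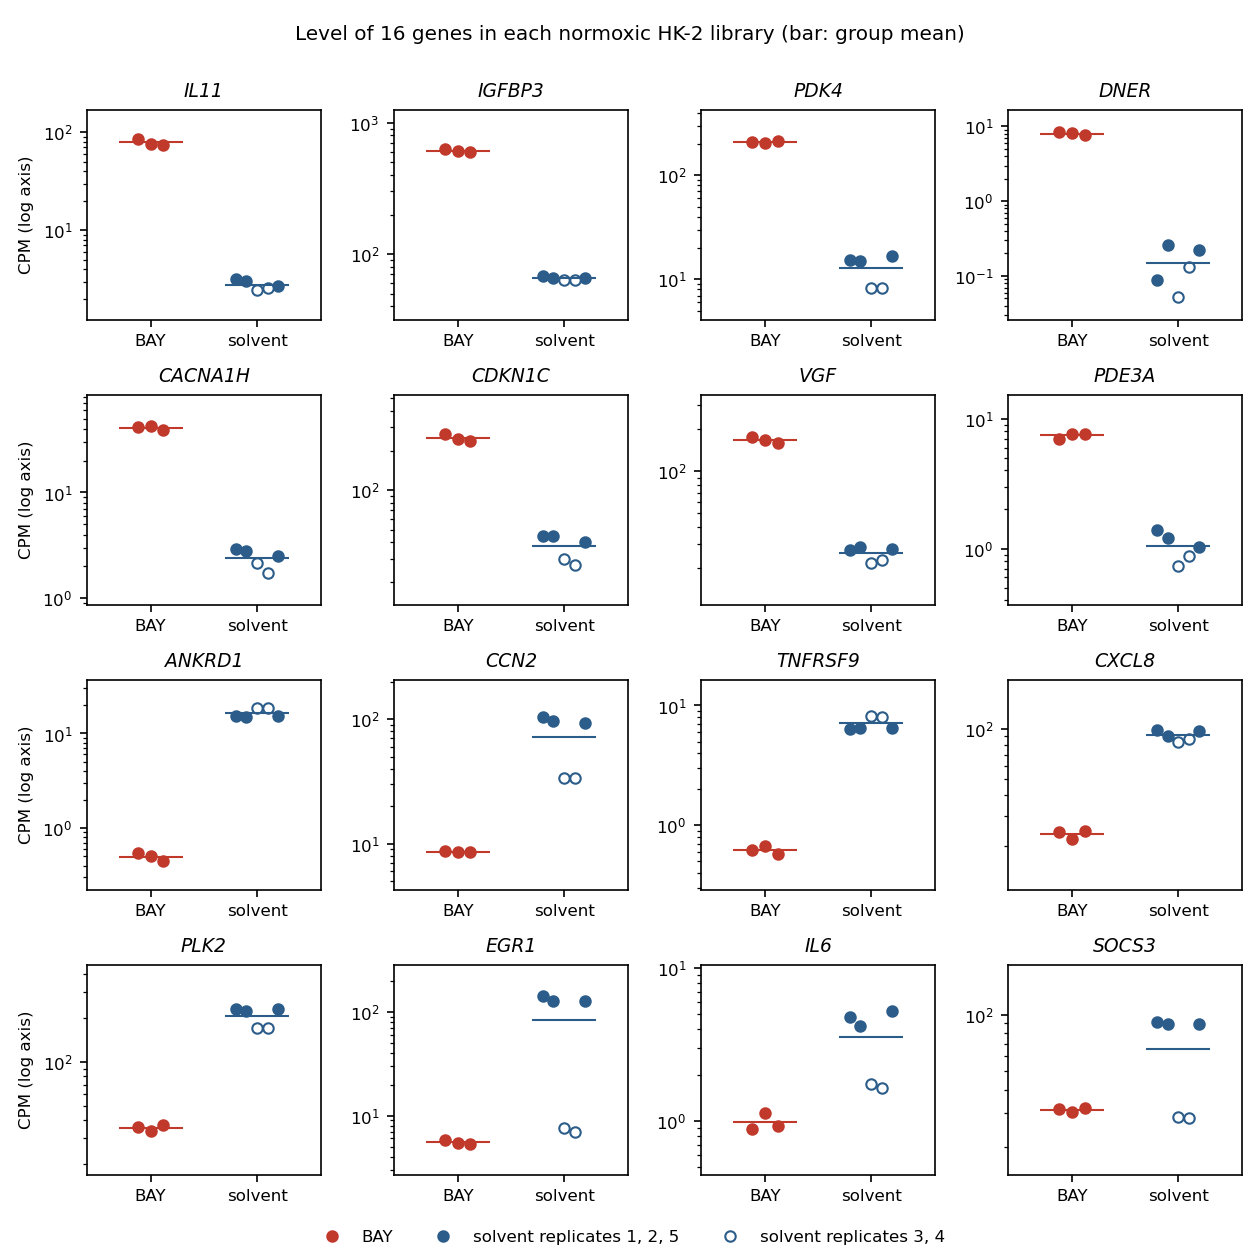
Level of 16 genes in each library, in CPM on log axes with BAY (red) left of solvent (blue) and a bar at each group mean; hollow circles are solvent replicates 3 and 4. IL11, IGFBP3 and ANKRD1 show tight groups far apart, whereas for EGR1 the hollow circles at 7.60 and 7.01 CPM lie near the BAY libraries and for SOCS3 just below them.

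Other genes also rose several-fold or more. DNER, a transmembrane protein with EGF-like repeats that can bind Notch, had 8.37, 8.12 and 7.59 CPM with BAY, against 0.0890, 0.260, 0.0522, 0.131 and 0.224 CPM with solvent; with a solvent level this low, its log2 fold change of 5.73 ± 0.40 depends on few counts (5.37 against solvent replicates 1, 2 and 5 alone and 6.45 against replicates 3 and 4 alone). CACNA1H, a T-type voltage-gated calcium channel, had 41.3, 42.1 and 39.0 CPM with BAY, against 2.93, 2.79, 2.17, 1.74 and 2.48 CPM with solvent. DNER was nearly silent with solvent, whereas CACNA1H was low but present. Both were higher in every BAY library, which the choice of the largest rises required. CDKN1C, an inhibitor of cyclin-dependent kinases, had 267, 244 and 238 CPM with BAY, against 44.7, 45.0, 29.9, 26.8 and 40.6 CPM with solvent. VGF, the precursor of several neuroendocrine peptides, had 178, 169 and 160.4 CPM with BAY, against 27.0, 28.4, 21.9, 23.1 and 27.7 CPM with solvent. Their log2 fold changes were 2.74 ± 0.15 and 2.72 ± 0.086 (edgeR adjusted p = 4.7e-08 and 2.7e-11). CSGALNACT1, which starts chondroitin sulfate chains, rose to 60.1 ± 1.30 CPM with BAY, against 6.28 ± 1.69 CPM with solvent, and DCN, the small matrix proteoglycan decorin, to 5.49 ± 0.220 CPM with BAY, against 0.698 ± 0.166 CPM with solvent. CCN5, a matricellular protein of the family that also holds CCN1 and CCN2, averaged 7.44 ± 0.584 CPM with BAY, against 1.01 ± 0.280 CPM with solvent (log2 fold change 2.89); its span overlaps an antisense gene, and reads of the pair cannot be told apart without strand.

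The genes with the smallest p-values, beside IL11, included several with smaller changes and little spread. One was P2RY6, a UDP receptor, with 76.2, 75.1 and 73.4 CPM with BAY, against 12.9, 11.5, 11.5, 10.9 and 12.4 CPM with solvent. MGAT5B, a glycosyltransferase, averaged 54.0 ± 1.33 CPM with BAY, against 14.4 ± 0.611 CPM with solvent, KLHL13, a ubiquitin ligase adaptor, 333 ± 0.627 CPM with BAY, against 140.4 ± 2.80 CPM with solvent, and the poorly characterised membrane protein gene TMEM245 992 ± 24.0 CPM with BAY, against 297 ± 9.48 CPM with solvent. On the other side stood DKK3, a secreted glycoprotein of the dickkopf family, with 24.4, 24.9 and 25.0 CPM with BAY, against 113, 106, 113, 110.1 and 106 CPM with solvent. IFIT2, an interferon-induced gene, averaged 19.4 ± 0.342 CPM with BAY, against 71.5 ± 1.66 CPM with solvent. The groups of these genes did not overlap, and their log2 fold changes ran from -2.15 for DKK3 to 2.66 for P2RY6. TMEM245 and IFIT2 overlap other tested genes, whose reads could not be separated from theirs.

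The drug's own pathway changed little at the level of its enzyme. Of 18 tested genes of cGMP synthesis and signalling, 5 were higher and 4 lower (50% called, against 43.9% of all genes), with a median log2 fold change of -0.020. The beta subunit gene GUCY1B1 had 98.3, 96.7 and 98.4 CPM with BAY, against 77.1, 73.1, 74.3, 72.8 and 74.2 CPM with solvent, a small rise (log2 fold change 0.40 ± 0.055, edgeR adjusted p = 2.8e-05). Its alpha partner GUCY1A1 averaged 38.0 ± 0.697 CPM with BAY, against 32.9 ± 1.34 CPM with solvent (log2 fold change 0.21 ± 0.049), a rise whose call was lost against solvent replicates 3 and 4 alone (edgeR adjusted p = 0.052). GUCY1A2, the other alpha subunit, fell to 8.56 ± 0.775 CPM with BAY, against 11.2 ± 0.623 CPM with solvent. NPR1, the membrane-bound guanylate cyclase that is the natriuretic peptide receptor, fell to 216 ± 2.88 CPM with BAY, against 293 ± 8.14 CPM with solvent (log2 fold change -0.44 ± 0.035). These 4 cyclase genes moved by less than 1.5-fold in either direction.

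Downstream of cGMP, the kinase genes were sparse. PRKG1, the cGMP-dependent kinase of muscle and fibroblasts, had 0.547 ± 0.0459 CPM with BAY, against 0.541 ± 0.113 CPM with solvent and was not called. PRKG2, the membrane-anchored isoform, had 1.52 ± 0.127 CPM with BAY, against 1.12 ± 0.211 CPM with solvent (log2 fold change 0.43 ± 0.15). Its call was lost without BAY replicate 1, 2 or 3 or solvent replicate 2 or 3 (log2 fold changes of 0.35 to 0.46) and against solvent replicates 1, 2 and 5 alone. It was also lost without the filter on low counts, with the 8 libraries alone and with the 18 libraries of the TGF-β1 experiment (edgeR adjusted p = 0.064, 0.055 and 0.056). VASP, a classic substrate of these kinases that also binds actin, had 49.1, 48.5 and 47.5 CPM with BAY, against 85.8, 85.8, 72.6, 71.9 and 87.5 CPM with solvent. RGS2, a regulator that shortens G-protein signalling and is a kinase substrate in vascular muscle, had 6.71, 6.87 and 7.19 CPM with BAY, against 2.83, 2.70, 2.88, 2.96 and 3.23 CPM with solvent. VASP transcripts were thus lower and RGS2 transcripts higher in every BAY library (log2 fold changes -0.74 ± 0.063 and 1.25 ± 0.098, edgeR adjusted p = 1.5e-07 and 6.1e-08). RGS2 overlaps an unnamed gene on the annotation, whose reads could not be separated from it. The largest fall on the list was that of CNGB1, a subunit of a cyclic nucleotide-gated channel, with 0.0408 ± 0.0277 CPM with BAY, against 0.239 ± 0.0767 CPM with solvent (log2 fold change -2.54 ± 0.53).

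Among phosphodiesterases, which end cyclic nucleotide signals, 6 of 19 tested were higher and 5 lower, beside 20.6% higher and 23.3% lower of all genes. PDE3A, which cleaves cyclic AMP and is inhibited by cGMP, had 7.02, 7.60 and 7.65 CPM with BAY, against 1.40, 1.21, 0.741, 0.884 and 1.03 CPM with solvent. PDE7B, specific for cyclic AMP, had 4.40, 4.54 and 4.03 CPM with BAY, against 1.80, 1.55, 1.88, 1.69 and 1.77 CPM with solvent, and PDE4A, another enzyme specific for cyclic AMP, averaged 7.20 ± 0.406 CPM with BAY, against 4.08 ± 0.208 CPM with solvent. Log2 fold changes were 2.82 ± 0.16 for PDE3A, 1.31 ± 0.10 for PDE7B, 0.82 ± 0.072 for PDE4A and 0.53 ± 0.04 for PDE8A, a further enzyme specific for cyclic AMP. The other called rises were PDE4C, of the same kind, at 0.45, and PDE6G, a subunit of the photoreceptor cGMP enzyme, at 0.77; the call of PDE4C was lost against solvent replicates 3 and 4 alone. PDE5A, the cGMP-specific enzyme that sildenafil blocks, fell to 2.00 ± 0.209 CPM with BAY, against 3.10 ± 0.112 CPM with solvent (log2 fold change -0.63 ± 0.11). PDE6B, a catalytic subunit of the photoreceptor cGMP enzyme, fell to 11.6 ± 0.580 CPM with BAY, against 20.5 ± 0.780 CPM with solvent. PDE11A, which cleaves both nucleotides, averaged 0.910 ± 0.0334 CPM with BAY, against 1.64 ± 0.377 CPM with solvent, and its call was lost against solvent replicates 3 and 4 alone (edgeR adjusted p = 0.055). PDE10A, with 38.7 ± 2.69 CPM with BAY, against 41.6 ± 1.58 CPM with solvent, was not called, but was called lower without BAY replicate 3 (-0.16, edgeR adjusted p = 0.0260). It was also called lower with all 24 libraries in 1 fit and with the 18 libraries of the TGF-β1 experiment (-0.12 in each).

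**Figure D3:**
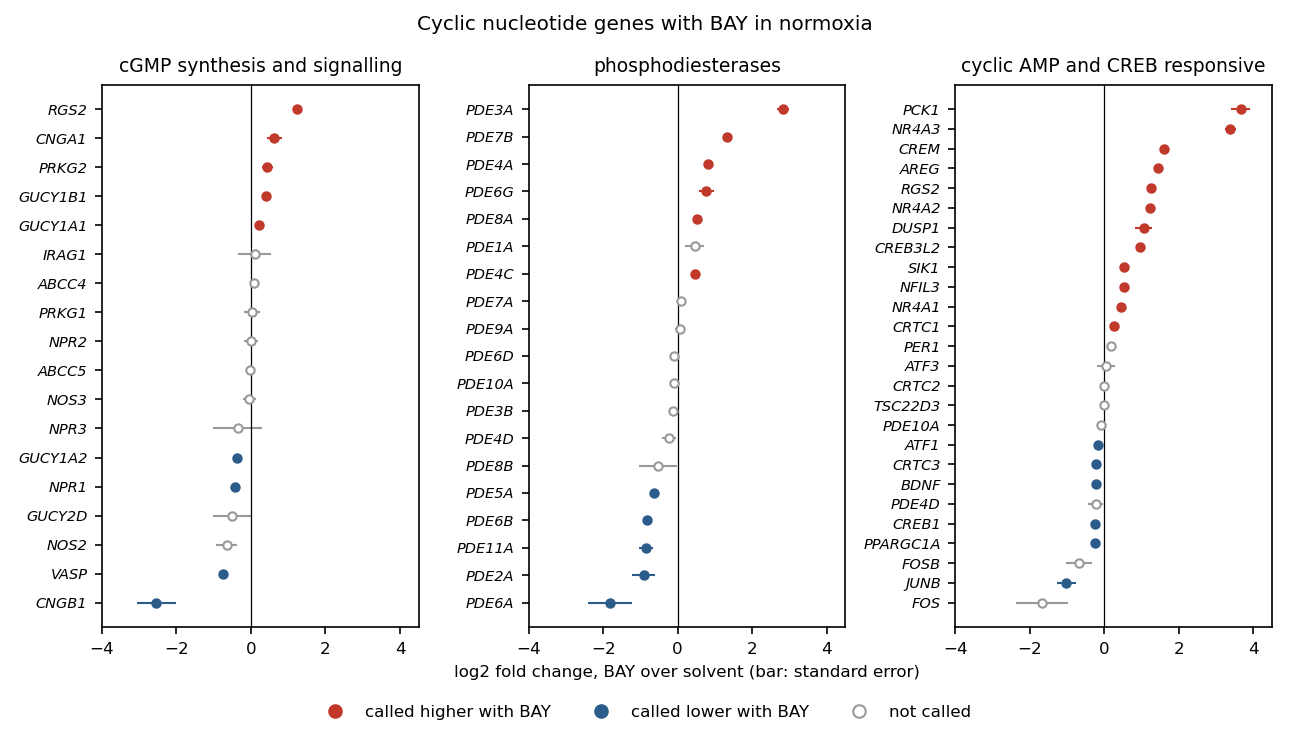
Log2 fold change, BAY over solvent in normoxia, with its standard error, for the tested genes of cGMP synthesis and signalling, the phosphodiesterases and the cyclic AMP and CREB responsive genes; filled points were called and hollow grey points were not. RGS2, PDE3A, PCK1 and NR4A3 lead the rises, and the cyclase subunits sit near 0.

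Genes that answer cyclic AMP through the transcription factor CREB were examined next. Of 26 tested, 12 were higher and 6 lower, beside 20.6% higher and 23.3% lower of all genes, and 7 of the rises were at least 2-fold. PCK1, which makes phosphoenolpyruvate for gluconeogenesis in the proximal tubule, had 4.53, 4.78 and 4.20 CPM with BAY, against 0.505, 0.368, 0.136, 0.284 and 0.481 CPM with solvent. NR4A3, an orphan nuclear receptor and early CREB target, had 2.68, 2.53 and 2.86 CPM with BAY, against 0.277, 0.249, 0.240, 0.262 and 0.257 CPM with solvent. Both were close to absent with solvent and present in every BAY library (log2 fold changes 3.66 ± 0.25 and 3.38 ± 0.15); PCK1 stood at 3.29 against solvent replicates 1, 2 and 5 alone and 4.43 against replicates 3 and 4 alone. CREM, the gene of a CREB-family factor that also yields a short repressor, had 33.8, 32.7 and 32.3 CPM with BAY, against 10.8, 11.0, 11.0, 9.80 and 11.8 CPM with solvent (log2 fold change 1.60 ± 0.054, edgeR adjusted p = 7.4e-12). AREG, a ligand of the EGF receptor, had 225, 209 and 209 CPM with BAY, against 79.6, 79.3, 76.6, 71.0 and 85.5 CPM with solvent. The median log2 fold change of the list depended on the solvent libraries used and was 0.12 with all 5, 0.019 against replicates 1, 2 and 5 alone and 0.54 against replicates 3 and 4 alone.

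The cyclic AMP response element, TGACGTCA on either strand, was looked for in the 250 bases before the RefSeq start of each gene (GRCh38.p14). It is in 1.77% of 27305 promoters and in 2.65% of the 12622 belonging to tested genes. Among promoters of genes called and at least 2-fold higher it is in 14 of 303 (4.62%), and among those called and at least 2-fold lower in 4 of 361 (1.11%). Its 5-base core CGTCA, which the full element contains, is in 28.6% of tested promoters, 18.8% of the risers' and 20.8% of the fallers'. The 4 promoters that follow belong to risers named here that carry the full element, shown in capitals, and NR4A3 is shown for its 4 cores without the full element. All are read 5′ to 3′ on the gene's strand and end at the base before the start: VGF at chr7:101165570-101165819, AREG at chr4:74444886-74445135, PDE7B at chr6:135851451-135851700, GABARAPL1 at chr12:10212627-10212876 and NR4A3 at chr9:99821635-99821884. A core on the other strand reads TGACG. The capitals in NR4A3 also mark 1 match, read CATTCC, to the TEAD motif introduced below.
VGF: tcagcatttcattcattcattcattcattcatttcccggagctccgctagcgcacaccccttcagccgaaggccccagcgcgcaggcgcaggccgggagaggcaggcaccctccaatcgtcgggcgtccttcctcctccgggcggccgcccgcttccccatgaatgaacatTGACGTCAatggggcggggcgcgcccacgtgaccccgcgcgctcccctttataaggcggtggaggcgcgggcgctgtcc
AREG: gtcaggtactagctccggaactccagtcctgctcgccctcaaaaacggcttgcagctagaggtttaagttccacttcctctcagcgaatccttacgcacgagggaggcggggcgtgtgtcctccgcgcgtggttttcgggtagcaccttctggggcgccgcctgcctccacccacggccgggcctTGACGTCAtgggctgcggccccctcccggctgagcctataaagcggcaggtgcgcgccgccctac
PDE7B: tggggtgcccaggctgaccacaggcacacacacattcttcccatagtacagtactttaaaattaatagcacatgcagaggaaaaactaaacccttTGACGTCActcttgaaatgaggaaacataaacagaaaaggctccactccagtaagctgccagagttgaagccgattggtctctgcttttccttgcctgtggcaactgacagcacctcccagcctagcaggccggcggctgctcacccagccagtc
GABARAPL1: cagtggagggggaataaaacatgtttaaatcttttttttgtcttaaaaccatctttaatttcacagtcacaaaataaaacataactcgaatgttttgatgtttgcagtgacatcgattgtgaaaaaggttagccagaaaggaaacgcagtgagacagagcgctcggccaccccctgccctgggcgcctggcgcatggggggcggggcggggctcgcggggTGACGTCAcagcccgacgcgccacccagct
NR4A3: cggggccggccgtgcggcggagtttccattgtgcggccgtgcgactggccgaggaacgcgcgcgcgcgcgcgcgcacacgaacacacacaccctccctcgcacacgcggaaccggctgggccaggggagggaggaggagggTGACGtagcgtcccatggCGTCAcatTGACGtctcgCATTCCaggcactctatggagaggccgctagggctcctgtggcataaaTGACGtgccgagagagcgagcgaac
The first base of the element is 79 bases before the start in VGF, 65 in AREG, 155 in PDE7B and 30 in GABARAPL1. IL11 holds neither the full element nor the core in this window, and IL32, which fell, holds the full element. A match describes letters only and is not evidence that a factor binds.

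IL11 rose far more than any other tested member of its cytokine family. Of 20 tested members (ligands, receptors, kinases, STATs and their inhibitors), 4 were higher and 7 lower, and IL11 was the only rise of at least 2-fold. Over all genes, 20.6% were higher and 23.3% lower. IL6, the founding ligand, had 0.894, 1.13 and 0.928 CPM with BAY, against 4.78, 4.22, 1.76, 1.65 and 5.28 CPM with solvent. Solvent replicates 3 and 4 lay between the BAY libraries and the other solvent libraries, and the log2 fold change of -1.84 ± 0.41 became -2.30 against solvent replicates 1, 2 and 5 alone and -0.78 against replicates 3 and 4 alone. LIF, another ligand of the family, had 40.6 ± 0.772 CPM with BAY, against 44.5 ± 4.88 CPM with solvent and was not called with all 5 solvent libraries, but was called lower against replicates 1, 2 and 5 alone (log2 fold change -0.27, edgeR adjusted p = 0.00509). The receptor chain that binds IL11, IL11RA, averaged 1.82 ± 0.240 CPM with BAY, against 1.44 ± 0.156 CPM with solvent. Its call was lost without BAY replicate 1 or 3 or solvent replicate 1, 2 or 3 (log2 fold changes of 0.27 to 0.33) and against either set of solvent replicates alone. It was also lost without the filter on low counts (edgeR adjusted p = 0.124), with the 8 libraries alone (0.060), with all 24 libraries in 1 fit (0.062) and with the 18 libraries of the TGF-β1 experiment (0.084). IL6ST, the signalling chain shared by the family, fell to 78.3 ± 4.55 CPM with BAY, against 97.2 ± 3.42 CPM with solvent (log2 fold change -0.31 ± 0.049), and JAK1, the kinase bound to it, to 235 ± 6.25 CPM with BAY, against 290.2 ± 10.4 CPM with solvent. STAT3, the main transcription factor of the pathway, averaged 209 ± 3.03 CPM with BAY, against 202 ± 14.5 CPM with solvent and was not called with all 5, but was called higher against replicates 3 and 4 alone (log2 fold change 0.18, edgeR adjusted p = 0.0054).

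The feedback inhibitors of that pathway divided. SOCS2 had 0.573, 0.477 and 0.428 CPM with BAY, against 1.06, 1.15, 1.38, 1.50 and 0.984 CPM with solvent, lower in every BAY library (log2 fold change -1.30 ± 0.23, edgeR adjusted p = 0.00029). SOCS3, the inhibitor induced by STAT3, had 31.6, 30.5 and 31.8 CPM with BAY, against 91.8, 89.5, 28.8, 28.4 and 89.6 CPM with solvent. Its BAY libraries lay below solvent replicates 1, 2 and 5 and just above replicates 3 and 4. It was not called (edgeR adjusted p = 0.059), but it was called lower against replicates 1, 2 and 5 alone (log2 fold change -1.55, edgeR adjusted p = 4.31e-08), without solvent replicate 3 or 4 (-1.26 for either) and with DESeq2. The same call was made with all 24 libraries in 1 fit and with the 18 libraries of the TGF-β1 experiment. Against replicates 3 and 4 alone SOCS3 was at 0.14.

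The insulin-like growth factor (IGF) axis held several of the largest changes. Of 21 tested members, 10 were higher and 5 lower, beside 20.6% higher and 23.3% lower of all genes, and 5 of the rises were at least 2-fold. Beside IGFBP3, IGFBP1 had 3.41, 2.85 and 2.63 CPM with BAY, against 0.237, 0.282, 0.167, 0.0655 and 0.157 CPM with solvent and IGFBP4 had 21.1, 19.4 and 20.1 CPM with BAY, against 9.75, 8.72, 5.90, 5.97 and 9.57 CPM with solvent. All are secreted carriers that hold IGFs away from their receptor. PAPPA, the protease that cuts IGFBP4 and frees its cargo, had 474, 552 and 573 CPM with BAY, against 104, 109, 96.6, 95.5 and 102 CPM with solvent. The stanniocalcins, secreted proteins that inhibit that protease, moved in opposite directions: STC1 had 1.50, 1.91 and 2.15 CPM with BAY, against 0.0495, 0.0217, 0.0104, 0.0546 and 0.0335 CPM with solvent, while STC2 had 16.9, 16.3 and 17.1 CPM with BAY, against 68.5, 67.3, 65.9, 65.7 and 64.5 CPM with solvent. The log2 fold changes were 4.01 ± 0.25 for IGFBP1, 2.39 ± 0.073 for PAPPA, 5.71 ± 0.29 for STC1 and -1.99 ± 0.069 for STC2. That of IGFBP1 was 3.68 against solvent replicates 1, 2 and 5 alone and 4.66 against replicates 3 and 4 alone. With solvent levels this low, the fold changes of STC1 and IGFBP1 depend on few counts.

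Receptors and adaptors of the axis moved less. IGF1R, the receptor of these growth factors, rose to 151 ± 7.30 CPM with BAY, against 117 ± 3.81 CPM with solvent (log2 fold change 0.37 ± 0.043), and IGF2R, which clears IGF2, fell to 562 ± 34.3 CPM with BAY, against 671 ± 16.2 CPM with solvent. The insulin receptor substrates fell, IRS1 to 33.1 ± 1.61 CPM with BAY, against 55.6 ± 4.51 CPM with solvent and IRS2 to 63.0 ± 0.575 CPM with BAY, against 97.6 ± 13.2 CPM with solvent (log2 fold changes -0.75 ± 0.064 and -0.63 ± 0.085, edgeR adjusted p = 1.7e-07 and 3.6e-05). The call of IRS2 was lost with all 24 libraries in 1 fit (edgeR adjusted p = 0.0515) and with the 18 libraries of the TGF-β1 experiment (edgeR adjusted p = 0.0866). GRB10, an adaptor that dampens both receptors, rose to 25.0 ± 0.967 CPM with BAY, against 16.2 ± 0.171 CPM with solvent. The IGF2 ligand itself was below 1 CPM in both groups.

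The genes around PDK4 moved in both directions. Of 18 tested genes of pyruvate entry into mitochondria, 6 were higher and 7 lower, and PDK4 was the only rise of at least 2-fold. Over all genes, 20.6% were higher and 23.3% lower. PDK1, the sister kinase best known from hypoxia, had 21.2, 21.7 and 22.7 CPM with BAY, against 37.1, 36.8, 35.2, 36.8 and 35.9 CPM with solvent. The phosphatase PDP1, which reverses these kinases, averaged 124 ± 1.01 CPM with BAY, against 202 ± 6.38 CPM with solvent, and PC, which feeds pyruvate into gluconeogenesis, 37.0 ± 0.308 CPM with BAY, against 19.6 ± 3.45 CPM with solvent. The groups of all 3 genes did not overlap (log2 fold changes -0.73 ± 0.045, -0.70 ± 0.05 and 0.92 ± 0.13). SLC16A1, the lactate and pyruvate carrier of the plasma membrane, had 157, 154 and 168 CPM with BAY, against 334, 329.6, 306, 309.8 and 345 CPM with solvent, and SLC16A3, the lactate exporter, averaged 123 ± 1.36 CPM with BAY, against 179 ± 11.7 CPM with solvent. Subunits of the dehydrogenase itself moved slightly, with PDHA1 at a log2 fold change of -0.20 and DLAT at -0.24.

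Fatty acid oxidation genes, which share regulators with PDK4, were called lower more than higher. Of 29 tested, 5 were higher and 12 lower, beside 20.6% higher and 23.3% lower of all genes. This tilt depended on the solvent libraries. Against replicates 1, 2 and 5 alone 6 were higher and 14 lower (median log2 fold change -0.20). Against replicates 3 and 4 alone 6 were higher and 9 lower (median 0.00094). The thiolase ACAA2 rose to 129 ± 4.66 CPM with BAY, against 81.1 ± 10.5 CPM with solvent and the short-chain dehydrogenase ACADS to 36.2 ± 1.05 CPM with BAY, against 26.5 ± 0.927 CPM with solvent, while PPARGC1B, a coactivator of mitochondrial genes, fell to 3.66 ± 0.614 CPM with BAY, against 8.19 ± 0.723 CPM with solvent and the carrier UCP2 to 90.0 ± 2.65 CPM with BAY, against 134 ± 4.79 CPM with solvent. Among 32 tested FOXO targets and autophagy genes, 11 were higher and 12 lower (5 lower against solvent replicates 3 and 4 alone). FOXO1, a transcription factor switched off by insulin signalling, had 4.63, 5.14 and 5.18 CPM with BAY, against 0.970, 0.931, 0.741, 0.764 and 0.682 CPM with solvent. GABARAPL1, an ATG8 family protein of autophagosomes, had 517, 501 and 488 CPM with BAY, against 123, 123, 109.8, 111 and 119.5 CPM with solvent. Both were at least 4-fold higher (log2 fold changes 2.60 ± 0.12 and 2.10 ± 0.052, edgeR adjusted p = 1.6e-10 and 2.3e-13). Members that fell included PIK3IP1, an inhibitor of phosphoinositide kinase, at 8.18 ± 0.373 CPM with BAY, against 17.2 ± 0.864 CPM with solvent.

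Targets of YAP and its DNA-binding partners, the TEAD factors, fell with ANKRD1. Of 21 tested, 15 were lower and 2 higher; the median log2 fold change was -0.86, against 23.3% lower and 0.0041 over all genes. CCN2, connective tissue growth factor, had 8.69, 8.64 and 8.58 CPM with BAY, against 103, 96.7, 33.5, 33.5 and 92.4 CPM with solvent. CCN1, its matricellular relative, had 76.2, 70.4 and 68.7 CPM with BAY, against 541, 516, 257, 250.4 and 512 CPM with solvent. In both, BAY libraries were lowest and solvent replicates 3 and 4 intermediate; the log2 fold change of CCN2 was -3.06 ± 0.44 with all solvent libraries, -3.52 against solvent replicates 1, 2 and 5 alone and -1.95 against replicates 3 and 4 alone, and that of CCN1 was -2.53 ± 0.29, -2.89 against solvent replicates 1, 2 and 5 alone and -1.81 against replicates 3 and 4 alone. AMOTL2, a junction protein that is both target and brake of YAP, had 53.7, 52.7 and 51.9 CPM with BAY, against 225, 216, 159, 163 and 207 CPM with solvent. TGFB2, which encodes a TGF-β ligand, had 25.2, 25.0 and 25.8 CPM with BAY, against 83.2, 82.9, 86.0, 90.9 and 78.6 CPM with solvent. IGFBP3 is also on this list and rose, so the list did not move as 1 block.

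The list of TEAD-responsive genes was compared with the letters GGAATG, the core TEAD motif, on either strand of the same 250 bases. It is in 9.51% of tested promoters, in 11.1% of those of genes at least 2-fold lower and in 8.58% of those at least 2-fold higher, and in 5 of the 15 list members with a promoter in the table. Shown here are the promoters of ANKRD1, with 2 matches, at chr10:90921088-90921337, and of CCN2, with 3, at chr6:131951373-131951622, each on the minus strand of GRCh38.p14 and read 5′ to 3′ on the gene's strand with matches in capitals. The RefSeq start of ANKRD1 lies inside its GENCODE span, so part of the window does too.
ANKRD1: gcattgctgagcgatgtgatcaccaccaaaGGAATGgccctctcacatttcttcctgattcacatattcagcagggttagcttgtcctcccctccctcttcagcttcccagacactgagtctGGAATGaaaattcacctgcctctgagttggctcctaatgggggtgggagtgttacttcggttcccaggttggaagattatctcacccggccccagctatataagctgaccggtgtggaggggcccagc
CCN2: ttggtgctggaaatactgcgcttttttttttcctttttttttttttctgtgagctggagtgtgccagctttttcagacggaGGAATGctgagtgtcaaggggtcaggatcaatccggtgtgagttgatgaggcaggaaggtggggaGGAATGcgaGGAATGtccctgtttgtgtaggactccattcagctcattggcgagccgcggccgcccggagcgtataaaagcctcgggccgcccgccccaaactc
The matches begin 220 and 128 bases before the start in ANKRD1 and 169, 104 and 95 bases before it in CCN2.

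Upstream of these targets, 14 of 22 tested Hippo kinases and YAP partners were lower and 3 higher, with small changes (median log2 fold change -0.17). Over all genes, 23.3% were lower and 20.6% higher. WWTR1, the YAP paralogue TAZ, had 161, 155 and 162 CPM with BAY, against 258, 257, 242, 246 and 253 CPM with solvent. NF2, the tumour suppressor merlin that activates the Hippo kinases, averaged 43.5 ± 0.146 CPM with BAY, against 84.2 ± 4.56 CPM with solvent. Both fell (log2 fold changes -0.66 ± 0.037 and -0.95 ± 0.056, edgeR adjusted p = 1.5e-09 and 2.6e-09), while the kinase cofactor MOB1B rose to 76.9 ± 2.80 CPM with BAY, against 51.7 ± 1.89 CPM with solvent. Actin and serum response factor targets gave a like count: 20 of 30 were lower and 2 higher, with a median of -0.46. TPM1, a tropomyosin of stress fibres, had 169, 166 and 171 CPM with BAY, against 546, 543, 533, 527 and 545 CPM with solvent. FLNA, which crosslinks actin filaments, had 1094, 1182 and 1215 CPM with BAY, against 2438, 2470.0, 2279.8, 2239.5 and 2350.2 CPM with solvent. MYH9, non-muscle myosin, averaged 590.1 ± 10.8 CPM with BAY, against 1118 ± 13.7 CPM with solvent, and all 3 were lower in every BAY library (log2 fold changes -1.68 ± 0.041, -1.02 ± 0.05 and -0.92 ± 0.061).

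**Figure D4:**
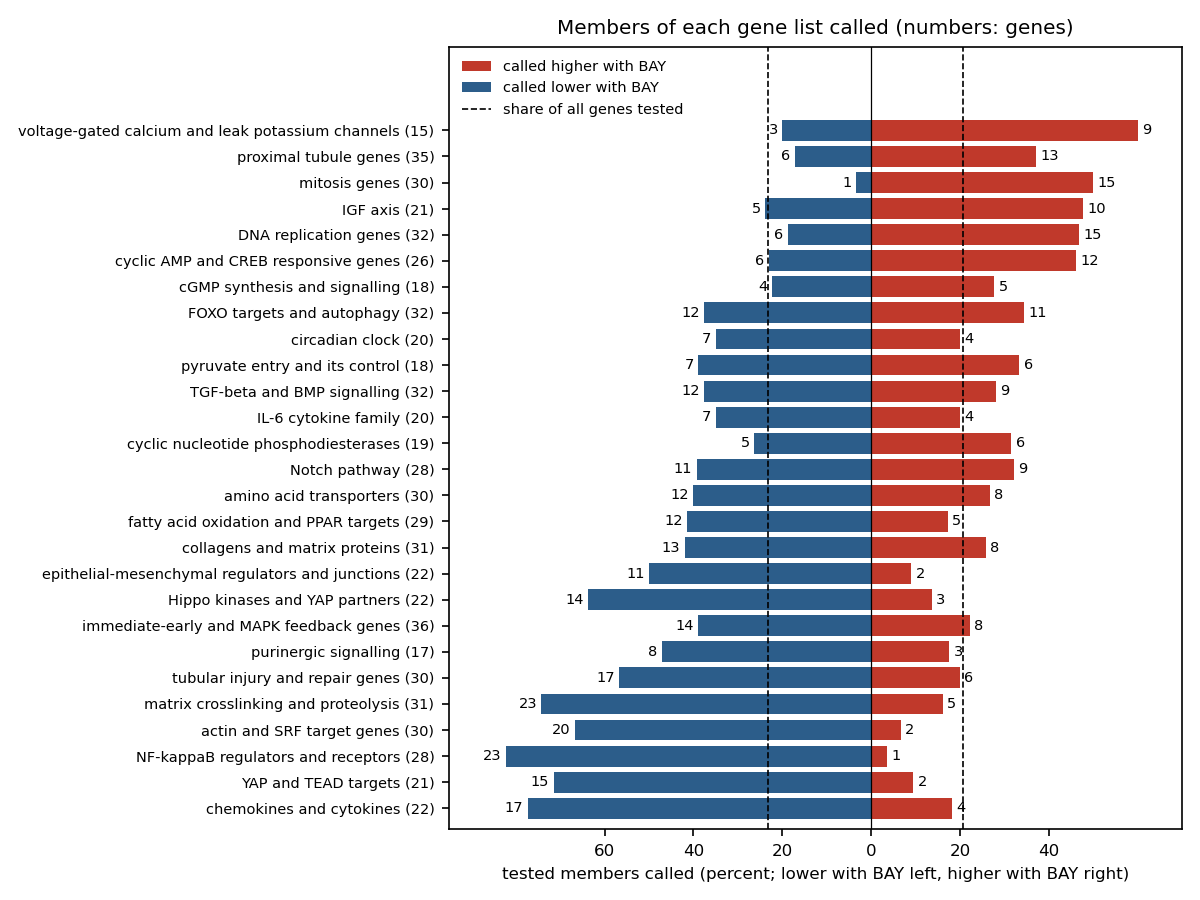
Share of tested members of each gene list shown that were called lower (blue, left) and higher (red, right) with BAY in normoxia, in percent, with the number of genes at each bar, the number tested in brackets and dashed lines at the shares over all genes tested (23.3% lower and 20.6% higher). NF-kappaB regulators (23 of 28 lower) and chemokines and cytokines (17 of 22) reach furthest left, and channels (9 of 15 higher) furthest right.

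Immediate-early genes, which serum and growth factors switch on within minutes, also showed the split of the solvent libraries. EGR1, a zinc finger transcription factor, had 5.85, 5.46 and 5.36 CPM with BAY, against 145, 129.6, 7.60, 7.01 and 129.6 CPM with solvent. With all 5 solvent libraries its log2 fold change was -3.91 ± 1.07 (edgeR adjusted p = 0.013), but it was -4.63 against solvent replicates 1, 2 and 5 alone and -0.38 against replicates 3 and 4 alone, and against that pair the call was lost (edgeR adjusted p = 0.0503). The call was also lost with limma voom and in a fit of the 8 libraries alone. Of 36 tested members of the group, 8 were higher and 14 lower, beside 20.6% higher and 23.3% lower of all genes. Against replicates 1, 2 and 5 alone 7 were higher and 20 lower, and against replicates 3 and 4 alone 13 were higher and 12 lower. For some members the direction was the same against either set. These include FOSL1, an AP-1 subunit, with 3.00, 2.78 and 3.20 CPM with BAY, against 18.5, 18.3, 15.0, 13.6 and 19.4 CPM with solvent, and FOSL2, another AP-1 subunit, with 456, 475 and 465 CPM with BAY, against 121, 120.3, 96.6, 96.8 and 118 CPM with solvent. These relatives moved in opposite directions against either set of solvent libraries (log2 fold changes -2.50 ± 0.16 and 2.08 ± 0.067). HBEGF, an EGF receptor ligand released by injured tubules, fell to 1.70 ± 0.127 CPM with BAY, against 9.06 ± 0.841 CPM with solvent (log2 fold change -2.41 ± 0.14).

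Inflammatory genes were mostly lower, beside 23.3% lower and 20.6% higher of all genes. Among chemokines and cytokines, 17 of 22 tested fell and 4 rose, with a median log2 fold change of -1.25, and 13 of the falls were at least 2-fold. Immune cell markers, whose summed level was also lower and whose leukocyte-defining members were at or near 0, are given below. CXCL8, the neutrophil chemokine interleukin-8, had 24.3, 21.9 and 24.4 CPM with BAY, against 98.1, 91.0, 83.5, 87.1 and 97.0 CPM with solvent. CXCL5, of the same class, had 5.04, 4.74 and 5.21 CPM with BAY, against 25.7, 24.6, 28.9, 28.3 and 25.0 CPM with solvent. IL32, a cytokine of epithelial and immune cells, had 32.1, 31.1 and 28.5 CPM with BAY, against 124, 123, 117, 116 and 127 CPM with solvent. All 3 were lower in every BAY library (log2 fold changes -1.96 ± 0.058, -2.41 ± 0.067 and -1.99 ± 0.062). CCL2, the monocyte chemokine, averaged 0.949 ± 0.0454 CPM with BAY, against 2.93 ± 0.308 CPM with solvent. LTB, lymphotoxin beta, had 0.0703, 0.297 and 0.0546 CPM with BAY, against 0.139, 1.57, 1.65, 1.58 and 1.59 CPM with solvent; solvent replicate 1 lay within the BAY range, so its groups overlapped although it was called (log2 fold change -3.23 ± 0.81, edgeR adjusted p = 0.0068), and without BAY replicate 2 its log2 fold change was -4.36. The call was lost with limma voom (log2 fold change -3.16, adjusted p = 0.0935).

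Of 28 tested NF-kappaB regulators and receptors, 23 were lower and 1 higher, with a median of -0.60, beside 23.3% lower and 20.6% higher of all genes. TNFRSF9, a receptor that co-stimulates lymphocytes, had 0.623, 0.679 and 0.582 CPM with BAY, against 6.35, 6.53, 8.20, 7.96 and 6.46 CPM with solvent. TNFRSF12A, the receptor of the cytokine TWEAK, had 15.9, 14.6 and 16.2 CPM with BAY, against 60.5, 58.7, 58.3, 56.3 and 58.5 CPM with solvent. BIRC3, an inhibitor of apoptosis and NF-kappaB target, averaged 25.1 ± 1.66 CPM with BAY, against 67.3 ± 2.19 CPM with solvent, and SOD2, the mitochondrial superoxide dismutase, 173 ± 3.74 CPM with BAY, against 403 ± 43.9 CPM with solvent. The falls of these 4 genes ranged from a log2 fold change of -1.22 for SOD2 to -3.50 for TNFRSF9 (edgeR adjusted p = 1.4e-06 and 2.7e-10). UBD, a ubiquitin-like modifier induced by inflammatory cytokines, had 0.593, 1.29 and 0.937 CPM with BAY, against 10.4, 9.05, 12.3, 11.2 and 10.8 CPM with solvent; its span overlaps GABBR1 and a pseudogene, and reads of overlapping genes cannot be separated here.

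Several genes of the differentiated proximal tubule rose modestly. Of 35 tested, 13 were higher and 6 lower, beside 20.6% higher and 23.3% lower of all genes, with a median log2 fold change of 0.22. SLC34A1, the phosphate transporter of the brush border, had 6.17, 6.32 and 6.10 CPM with BAY, against 2.80, 2.76, 3.12, 2.71 and 2.33 CPM with solvent. MIOX, the inositol oxygenase found almost only in this segment, had 127, 121 and 115 CPM with BAY, against 60.0, 58.9, 64.4, 65.4 and 60.8 CPM with solvent. FXYD2, the gamma subunit of the sodium pump, averaged 619 ± 39.2 CPM with BAY, against 325 ± 40.2 CPM with solvent. These rises were near 2-fold (log2 fold changes 1.18 ± 0.082, 0.97 ± 0.049 and 0.93 ± 0.088). Of 30 genes of tubular injury and repair, 17 were lower and 6 higher, with a median of -0.36, beside 23.3% lower and 20.6% higher of all genes. With all 5 solvent libraries the largest rise among them, at a log2 fold change of 1.05, was the only 1 of at least 2-fold, and 6 falls were of that size. That rise was 0.87 against solvent replicates 1, 2 and 5 alone. ANXA3, an annexin of injured epithelium, had 23.2, 21.8 and 22.7 CPM with BAY, against 71.8, 71.7, 72.3, 71.7 and 73.4 CPM with solvent, and its groups did not overlap (log2 fold change -1.68 ± 0.059).

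The matrix genes did not move together, and their counts stand beside 20.6% higher and 23.3% lower of all genes. Of 31 collagens and matrix proteins, 8 were higher and 13 lower (7 lower against solvent replicates 3 and 4 alone). TNC, the matricellular protein tenascin C, had 21.1, 24.2 and 27.5 CPM with BAY, against 109, 111, 96.9, 87.9 and 111 CPM with solvent. THBS2, a thrombospondin, averaged 9.21 ± 0.389 CPM with BAY, against 35.4 ± 1.29 CPM with solvent, and COL12A1, a fibril-associated collagen, 2.35 ± 0.146 CPM with BAY, against 8.30 ± 1.07 CPM with solvent. In contrast LUM, the proteoglycan lumican, rose to 129.7 ± 3.32 CPM with BAY, against 84.7 ± 11.4 CPM with solvent together with DCN. Of 31 enzymes that crosslink or cut the matrix and their inhibitors, 23 fell and 5 rose. PLAU, the urokinase protease, had 204, 199.7 and 199.8 CPM with BAY, against 569.5, 581, 587, 620.1 and 584 CPM with solvent. MMP7, a metalloprotease of injured tubules, averaged 138 ± 2.86 CPM with BAY, against 312 ± 23.1 CPM with solvent. Both fell (log2 fold changes -1.55 ± 0.043 and -1.18 ± 0.055). P4HA3, a prolyl hydroxylase subunit, rose to 1.62 ± 0.114 CPM with BAY, against 0.447 ± 0.0682 CPM with solvent. Of 32 TGF-β and BMP signalling genes, 9 were higher and 12 lower; the inhibitor SMAD7 averaged 8.01 ± 0.131 CPM with BAY, against 17.5 ± 6.19 CPM with solvent (log2 fold change -1.12), or -1.48 against solvent replicates 1, 2 and 5 alone and -0.41 against replicates 3 and 4 alone.

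Many cell cycle genes rose slightly, beside 20.6% higher and 23.3% lower of all genes. Of 30 mitosis genes, 15 were higher and 1 lower (median log2 fold change 0.18), and of 32 DNA replication genes, 15 were higher and 6 lower (median 0.13). RRM2, the ribonucleotide reductase subunit that limits DNA synthesis, had 757, 729 and 746 CPM with BAY, against 191, 189, 176, 167 and 204 CPM with solvent. It stood apart from its list (log2 fold change 2.01 ± 0.077, edgeR adjusted p = 9.2e-11), whose next largest rise was that of CCNE2, cyclin E2, with 34.2 ± 0.534 CPM with BAY, against 23.1 ± 4.25 CPM with solvent. TOP2A, which untangles chromosomes, averaged 678 ± 26.9 CPM with BAY, against 463 ± 11.2 CPM with solvent, and CDK1, the mitotic kinase, 105 ± 4.24 CPM with BAY, against 74.4 ± 1.73 CPM with solvent. Against solvent replicates 3 and 4 alone 6 replication genes were higher and 3 lower. PLK2, a polo-like kinase and one of the largest falls, had 35.7, 34.0 and 37.2 CPM with BAY, against 232, 225, 172, 170.5 and 229.6 CPM with solvent. Its groups did not overlap, which the choice of the largest falls required, and solvent replicates 3 and 4 were somewhat below the other solvent libraries (log2 fold change -2.53 ± 0.12, edgeR adjusted p = 2.9e-09).

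Channels and transporters included some of the clearest single-gene changes. Their counts stand beside 20.6% higher and 23.3% lower of all genes. Of 15 tested voltage-gated calcium and leak potassium channels, 9 were higher and 3 lower. KCNK15, a potassium leak channel that shares its antisense neighbour with CCN5, had 10.2, 8.99 and 8.42 CPM with BAY, against 2.51, 2.73, 2.44, 2.22 and 2.72 CPM with solvent, and KCNK3, an acid-sensitive relative, averaged 79.3 ± 0.537 CPM with BAY, against 36.1 ± 9.13 CPM with solvent. CACNA1D, an L-type calcium channel, averaged 2.98 ± 0.450 CPM with BAY, against 1.25 ± 0.188 CPM with solvent. These rises (log2 fold changes 1.86 ± 0.11, 1.13 ± 0.18 and 1.25 ± 0.14) were smaller than that of CACNA1H. Among 30 amino acid transporters, 8 were higher and 12 lower. SLC38A3, a glutamine transporter that the proximal tubule uses in acidosis, had 14.2, 14.5 and 14.8 CPM with BAY, against 1.77, 1.99, 1.55, 1.56 and 2.42 CPM with solvent, whereas SLC38A5, a relative, averaged 2.64 ± 0.101 CPM with BAY, against 8.01 ± 0.249 CPM with solvent. Of 17 purinergic genes, 3 were higher and 8 lower; the adenosine receptors ADORA2A and ADORA2B fell to 1.16 ± 0.196 CPM with BAY, against 3.59 ± 0.196 CPM with solvent and to 1.19 ± 0.107 CPM with BAY, against 3.18 ± 0.173 CPM with solvent, while P2RY6 rose.

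Smaller groups gave mixed counts, to be read beside 20.6% higher and 23.3% lower of all genes. Of 28 Notch pathway genes, 9 were higher and 11 lower; DTX1, a Notch regulator, fell to 9.52 ± 0.342 CPM with BAY, against 21.9 ± 1.41 CPM with solvent. Of 20 clock genes, 4 were higher and 7 lower, and against solvent replicates 3 and 4 alone 7 were higher and 5 lower; BHLHE41, a clock repressor, fell to 10.6 ± 0.179 CPM with BAY, against 30.3 ± 4.06 CPM with solvent and the activator HLF rose to 96.5 ± 1.23 CPM with BAY, against 59.5 ± 9.96 CPM with solvent. Of 22 epithelial-mesenchymal regulators and junction genes, 2 were higher and 11 lower; the repressor SNAI2 fell to 0.470 ± 0.110 CPM with BAY, against 2.05 ± 0.227 CPM with solvent, the tight junction adaptor CGN to 34.5 ± 1.09 CPM with BAY, against 70.6 ± 6.17 CPM with solvent, and CLDN2, the leaky claudin of the proximal tubule, rose to 359 ± 2.34 CPM with BAY, against 195 ± 28.3 CPM with solvent.

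Markers of other cell types were measured beside these groups. Summed over 9 fibroblast markers the level was 169.9 to 177 CPM with BAY, against 112 to 141 CPM with solvent, of which LUM and COL1A1 made up most. Over 9 immune cell markers it was 259.5 to 269 CPM with BAY, against 379 to 414 CPM with solvent, nearly all from CD68 and CD74, the invariant chain of antigen presentation (150.5 ± 2.88 CPM with BAY, against 271 ± 16.1 CPM with solvent); PTPRC, which marks all leukocytes, stayed under 0.1 CPM in both groups and CD3E was at 0. Endothelial markers summed to 31.7 to 35.5 CPM with BAY, against 31.5 to 42.1 CPM with solvent, with KDR and CLDN5 at 0, and podocyte markers to 107 to 112 CPM with BAY, against 72.9 to 92.4 CPM with solvent, with WT1 at 0. Distal nephron markers summed to 38.2 to 40.0 CPM with BAY, against 37.4 to 41.0 CPM with solvent, with UMOD, AQP2 and SCNN1B at 0. The last 3 sums came mostly from EGFL7, SYNPO and SCNN1A, in that order. SYNPO averaged 105 ± 2.68 CPM with BAY, against 75.2 ± 9.72 CPM with solvent, and PODXL, another podocyte marker, 4.04 ± 0.0396 CPM with BAY, against 7.34 ± 0.310 CPM with solvent. The median log2 fold change of the 3 tested podocyte markers was -0.70. The call of SYNPO was lost with all 24 libraries in 1 fit and with the 18 libraries of the TGF-β1 experiment (edgeR adjusted p = 0.107 and 0.152). The sum over the 41 listed proximal tubule genes was 2718 to 2773 CPM with BAY, against 1964 to 2286 CPM with solvent. The part of these markers in the results was not tested. Fewer cells of a kind and less RNA per cell cannot be told apart in such bulk libraries.

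The effect of BAY in normoxia was set against its effect in hypoxia and on top of TGF-β1 for 9 genes, the 4 lead genes and 5 others among the largest changes (DNER, CACNA1H, EGR1, UBD and TNFRSF9). The difference between the effects was tested itself, and both tests use the same 8 normoxia libraries. The 5 others were picked by the size of their change in these libraries, and the 4 lead genes also rank high there. Such a choice favours smaller effects in other settings, so the direction of the differences cannot be read apart from it. Over all genes, 16.8% differed between hypoxia and normoxia and 20.7% (of 21639 genes) between TGF-β1 and no TGF-β1. PDK4 in hypoxia had 43.7 ± 7.93 CPM with BAY, against 18.2 ± 1.84 CPM with solvent (log2 fold change 1.27 ± 0.26). Its effect was smaller there, with a difference, hypoxia minus normoxia, of -2.77 on the log2 scale (edgeR adjusted p = 0.0004). IGFBP3 in hypoxia had 3049 ± 429 CPM with BAY, against 673 ± 90.5 CPM with solvent; the difference was -1.04 (edgeR adjusted p = 5.9e-05), although both hypoxia levels exceeded those in normoxia. ANKRD1 was also lower with BAY in hypoxia, with 0.599 ± 0.0953 CPM with BAY, against 4.04 ± 0.391 CPM with solvent. Its fall was smaller there, with a difference of 2.30, and so was that of TNFRSF9, with 0.70 (edgeR adjusted p = 1.2e-06 and 0.044). The call of TNFRSF9 was lost without BAY replicate 1 or 3 or solvent replicate 2, 3 or 4 and with the replicate number as a block (differences of 0.65 to 0.73).

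IL11 in hypoxia had 80.9 ± 8.01 CPM with BAY, against 3.82 ± 0.0559 CPM with solvent. The call of its difference, -0.41 (edgeR adjusted p = 0.028), was lost without any 1 of the BAY replicates (-0.42 to -0.33) and against solvent replicates 1, 2 and 5 alone (-0.28, edgeR adjusted p = 0.095). No difference was called for DNER at -1.27 ± 0.62, CACNA1H at -0.18 ± 0.16, EGR1 at 2.88 ± 1.64 or UBD at 0.076 ± 0.89, and the standard errors leave room for sizeable differences in DNER, EGR1 and UBD. Both EGR1 and CACNA1H depended on the solvent libraries: EGR1 was called at 3.60 against replicates 1, 2 and 5 alone and at -0.64 against replicates 3 and 4 alone, and CACNA1H at -0.48 against replicates 3 and 4 alone.

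On top of TGF-β1, DNER had 0.493 ± 0.0545 CPM with BAY and TGF-β1, against 0.781 ± 0.176 CPM with TGF-β1 alone. The rise seen with BAY alone was not called here (log2 fold change -0.66 ± 0.25, edgeR adjusted p = 0.058), and the effects differed by -6.37 on the log2 scale, TGF-β1 minus no TGF-β1 (edgeR adjusted p = 3.3e-09). CACNA1H had 33.0 ± 2.48 CPM with BAY and TGF-β1, against 16.5 ± 0.399 CPM with TGF-β1 alone, a difference of -3.06, and IL11 had 1577 ± 78.3 CPM with BAY and TGF-β1, against 312 ± 18.8 CPM with TGF-β1 alone, a difference of -2.46 (edgeR adjusted p = 1.2e-10 and 6.9e-12). BAY with TGF-β1 gave the highest IL11 level of the 6 groups compared here. ANKRD1 and TNFRSF9 fell less on top of TGF-β1, with differences of 2.14 and 2.22 (edgeR adjusted p = 6.4e-08 and 2.4e-09). IGFBP3 at 0.18 ± 0.14, PDK4 at 0.34 ± 0.42, UBD at 0.83 ± 0.64 and EGR1 at 3.62 ± 1.37 were not called. EGR1 was called without solvent replicate 3 or 4 (3.92 for either), with all 24 libraries in 1 fit (3.63) and against solvent replicates 1, 2 and 5 alone (4.31). Against solvent replicates 3 and 4 alone its difference was 0.066 (edgeR adjusted p = 0.986). EGR1 also varied within the TGF-β1 groups, from 7.26 to 33.9 CPM with TGF-β1 alone and from 6.05 to 26.9 CPM with BAY and TGF-β1.

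**Figure D5:**
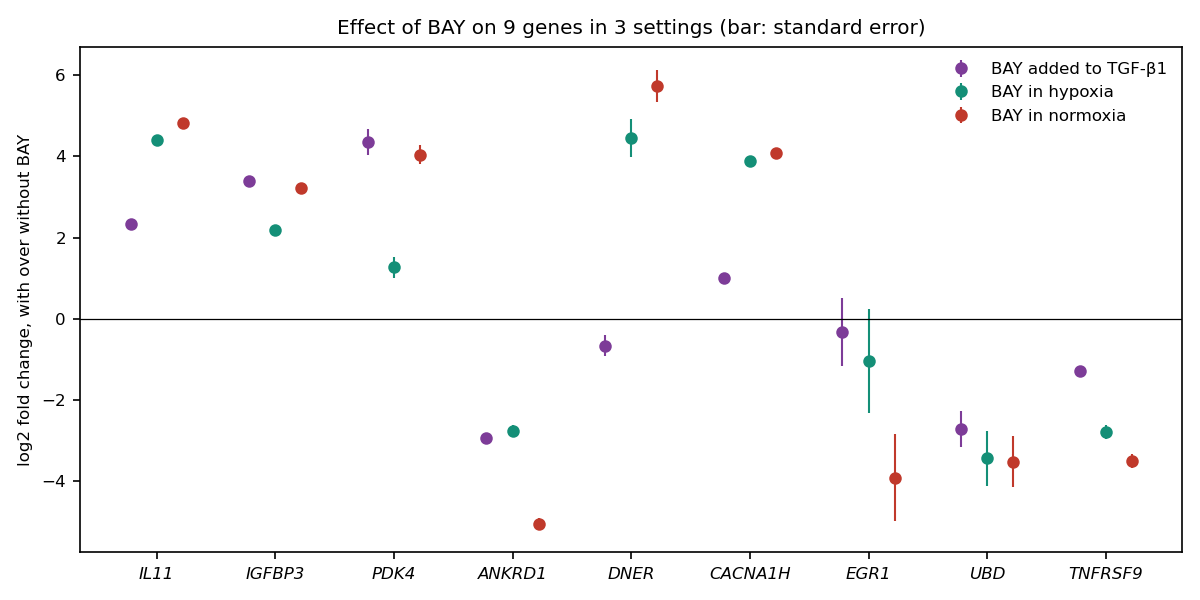
Log2 fold change with over without BAY, with its standard error, for 9 genes on top of TGF-β1 (purple), in hypoxia (green) and in normoxia (red). IL11, IGFBP3 and PDK4 lie above 0 and ANKRD1 below 0 in all 3 settings, while DNER is higher with BAY in normoxia and in hypoxia and lies at -0.66 on top of TGF-β1.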

How the data were processed

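The series holds poly(A) RNA-seq of HK-2 cells in 24 libraries, prepared with a NEBNext Ultra II kit per the labels' protocols. The deposited table gives the authors' estimated counts for 65180 gene IDs; 48.6% of values above 0 are not whole. Salmon, DESeq2 and the builds GRCh38 and hg38 are named, with no role or version, per the submitters' processing notes. Whether counting used strand is not given in the sources used here.

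Estimated counts were rounded to whole numbers. Genes were filtered with filterByExpr, scaled by TMM and tested 2-sided with edgeR 4.0.16 (robust quasi-likelihood, R 4.3.3, limma 3.58.1) in the 14 libraries of normoxia and hypoxia without TGF-β1, and for TGF-β1 in its 18 libraries. A call is a Benjamini-Hochberg adjusted p below 0.05 over all genes tested. Standard errors were derived from the F statistic and are approximate. The script was tested on simulated data. Symbols (58919 IDs; the 6261 without one held 4.36% of counts) came from a gene name table, positions from GENCODE 29 and promoters from RefSeq; some list members were not analysed here.

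Named genes are the 4 lead genes, the 12 largest rises and 12 largest falls of called genes at 5 CPM or more without overlap, the members of the cGMP, IL-6, IGF and pyruvate lists and phosphodiesterases at 0.5 CPM or more, up to 4 called genes of each other list at 1 CPM or more, and the 6 smallest p-values in each direction; not all are printed, some results are not reported here, and the comparisons with hypoxia and TGF-β1 take the lead genes and the first 4 rises and falls. The members and the 33 lists were chosen with earlier results of these data known. Alternatives were another scaling, no filter, DESeq2 1.42.0, limma voom, other sets of libraries, a replicate block, each replicate left out, and, chosen after seeing the data, the solvent libraries split in 2 sets.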

Additional observations from a re-analysis of the deposited data

Results flagged for a closer look

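The genes compared across settings were chosen largely by their change in normoxia, which favours smaller effects elsewhere. The effect of BAY differed between settings, by a test of the difference itself, for the following genes. Hypoxia minus normoxia, the difference was -0.41 for IL11, -1.04 for IGFBP3, -2.77 for PDK4, 2.30 for ANKRD1 and 0.70 for TNFRSF9 on the log2 scale. The call of IL11 was lost without any 1 of the 3 BAY replicates and against solvent replicates 1, 2 and 5 alone, and that of TNFRSF9 without any 1 of 5 libraries and with the replicate block. TGF-β1 minus no TGF-β1, it was -2.46 for IL11, 2.14 for ANKRD1, -6.37 for DNER, -3.06 for CACNA1H and 2.22 for TNFRSF9.

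In 4 genes 1 of the 5 solvent libraries lay apart from the others by Dixon's criterion, which chance meets in about 1 of 20 groups. Many named genes were examined, so chance alone can give this many. The 4 were PIK3IP1 at 18.7 CPM in solvent replicate 4, LTB at 0.139 CPM in solvent replicate 1, CCL2 at 3.47 CPM in solvent replicate 3 and CDK1 at 77.5 CPM in solvent replicate 5.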

How the results depend on the processing

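With each library left out in turn, 7663 to 9567 genes were called (3396 to 4588 higher, 4267 to 4979 lower), of which 1173 to 1375 changed at least 2-fold (552 to 723 higher, 604 to 655 lower). Over the other alternatives the number called ran from 7301 against solvent replicates 3 and 4 alone to 10507 against replicates 1, 2 and 5 alone, where 936 rather than 614 genes rose at least 2-fold. DESeq2 called 9579 genes and limma voom 9801. Of the 9 genes compared with hypoxia, 3 to 5 differed with each library left out, 3 of them without BAY replicate 1 or 3; with TGF-β1 5 to 6 did. Same-numbered BAY and solvent libraries did not deviate together (correlations of 0.0101, -0.0133 and -0.0222). These values give no sign of pairing but cannot exclude it, since the split of solvent replicates 3 and 4 from the others enters them. With the replicate block 8379 genes were called, and the calls of LTB (-2.88, edgeR adjusted p = 0.0525) and, in the difference from hypoxia, TNFRSF9 (0.67, edgeR adjusted p = 0.0868) were lost. The abundant genes given below were not followed through all these runs. Among the genes of the naming rule, none named as called changed direction in any alternative run. Some that were not called did. PRKG1 was at -0.00026 with all 24 libraries fitted together, -0.034 against solvent replicates 1, 2 and 5 alone and -0.061 to -0.011 without BAY replicate 3 or solvent replicate 1, 2 or 3. STAT3 at -0.049 and IGF2 at -0.025 turned against replicates 1, 2 and 5 alone, and LIF at 0.061 and SOCS3 at 0.14 against replicates 3 and 4 alone. In the difference from hypoxia, CACNA1H was 0.036 against replicates 1, 2 and 5 alone, EGR1 -0.64 against replicates 3 and 4 alone, and UBD -0.031 with the block and -0.14 to 0.39 with each library left out (-0.14 without BAY replicate 1). PDK4 was -0.32 in the difference from TGF-β1 against replicates 3 and 4 alone. The cause was not tested. Genes under 1 CPM rest on few reads even at these depths.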

Other observations

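Among abundant genes, those of at least 100 CPM in either group, 99 were called with at least a 2-fold change, 59 higher and 40 lower, and 75 of them are not among the 201 genes that the naming rule picks. The examples here were chosen after their values were seen. IGFN1, an immunoglobulin-like protein best known from muscle, had 6539, 8004 and 7937 CPM with BAY, against 1119, 1162, 2293, 2299 and 919 CPM with solvent (log2 fold change 2.27 ± 0.29), with solvent replicates 3 and 4 between the other libraries. Its log2 fold change was 2.79 against solvent replicates 1, 2 and 5 alone and 1.72 against replicates 3 and 4 alone. RSPO3, a secreted enhancer of Wnt signalling, had 346, 339 and 349 CPM with BAY, against 83.2, 82.3, 54.2, 52.5 and 84.2 CPM with solvent, and FZD1, a Wnt receptor, averaged 109 ± 1.66 CPM with BAY, against 30.8 ± 3.26 CPM with solvent. Both rose (log2 fold changes 2.27 ± 0.16 and 1.83 ± 0.088, edgeR adjusted p = 3.9e-07 and 1.6e-09). RSPO3 was at 2.03 against solvent replicates 1, 2 and 5 alone and at 2.70 against replicates 3 and 4 alone. PTGES, which makes prostaglandin E2, had 174, 171 and 162 CPM with BAY, against 42.0, 39.8, 35.8, 36.2 and 42.1 CPM with solvent, and PTGER2, a receptor of that prostaglandin that raises cyclic AMP, averaged 109.9 ± 3.19 CPM with BAY, against 49.2 ± 6.43 CPM with solvent. The groups of both genes did not overlap (log2 fold changes 2.11 ± 0.084 and 1.16 ± 0.084). DDIT4, an inhibitor of mTOR signalling induced by stress, averaged 459 ± 16.5 CPM with BAY, against 134 ± 10.2 CPM with solvent. CD24, with the largest rise of the tubular injury and repair genes, averaged 1003 ± 39.9 CPM with BAY, against 484 ± 75.6 CPM with solvent. Its log2 fold change was 0.87 against solvent replicates 1, 2 and 5 alone and 1.33 against replicates 3 and 4 alone.

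Other abundant genes fell. The integrin chains ITGAV and ITGA3 averaged 523 ± 32.3 CPM with BAY, against 1191 ± 90.3 CPM with solvent and 230.2 ± 1.66 CPM with BAY, against 480.5 ± 34.9 CPM with solvent. L1CAM, a cell adhesion molecule of neurons and tubule cells, had 62.4, 63.0 and 58.1 CPM with BAY, against 173, 175, 178, 181 and 172 CPM with solvent. All 3 were lower in every BAY library, with log2 fold changes from -1.52 for L1CAM to -1.06 for ITGA3. Against solvent replicates 3 and 4 alone ITGA3 was at -0.93. AJUBA, an adaptor at cell junctions that restrains Hippo kinases, averaged 47.9 ± 1.84 CPM with BAY, against 128 ± 4.89 CPM with solvent, and TMSB4X, the actin monomer binder thymosin beta-4, 919.6 ± 31.2 CPM with BAY, against 1868 ± 140.3 CPM with solvent. The log2 fold change of TMSB4X was -1.02, or -0.89 against solvent replicates 3 and 4 alone.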
